A study of Mus musculus with 4 samples.

Results

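The Slc25 family is the set of mitochondrial solute carriers. Here it was taken as every gene on the array whose name in the files starts with Slc25a, leaving out Slc25a1 and Slc25a20, which gave 40 of the 42 such genes, measured by 48 probes, of 31709 genes on the array. RNA came from the livers of male mice lacking Ilrun in the whole body (IlrunKO) and male wild-type (WT) mice, with 4 samples of each genotype. All mice were C57BL/6, were kept on chow and had been fasted for 4 h. Their age was not given in the sources used here. Each of 4 two-colour Agilent arrays held 1 IlrunKO and 1 WT sample, and the dyes were swapped: Cy5 (red) marked the IlrunKO sample on arrays 1 and 2, and Cy3 (green) did so on arrays 3 and 4. Differences are given as the log2 of IlrunKO divided by WT, with the SD over arrays (n = 4), and levels as the normalised log2 intensity of a sample. Rose and fell are used where the limma adjusted p was under 0.05. Where 1 array is left out, the estimate given is the average of the means of both dye orientations. It is not the plain mean of the arrays left, since an array alone in its orientation weighs as much as both arrays of the other.

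Slc25 proteins sit mostly in the inner mitochondrial membrane, each built of repeats of a short membrane-spanning module, and pass metabolites between cytosol and matrix, usually by exchanging one for another. In hepatocytes they feed the urea cycle, gluconeogenesis, lipid synthesis and oxidative phosphorylation, since these pathways are split between the compartments. Most inner membrane members are imported through the TIM22 complex.

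The family's clearest difference was Slc25a25, an ATP-Mg/phosphate carrier that is switched on by calcium and sets the adenine nucleotide content of the matrix. Its transcript fell 2.07-fold in IlrunKO liver. No other member passed, although the dicarboxylate carrier gene Slc25a10 stood higher, at 0.59, with no overlap between the genotypes. Most carriers differed little: 29 of the 35 members measured on all 4 arrays had a ratio smaller than 0.25 in size.

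Sequence upstream of the start is printed for 3 members. They are the member that fell, a member with a dim probe and a ratio close to 0, and one that stood higher. RefSeq (GRCm38.p6) gave the 250 bases before a transcript start for 30 of the 40 members, in 39 windows, some of which overlap or belong to the same gene. Slc25a25 has 3 such windows, all on the minus strand, at chr2:32424067-32424316, chr2:32431152-32431401 and chr2:32451471-32451720. Slc25a36, a pyrimidine nucleotide carrier gene, has 1 at chr9:97111042-97111291 on the minus strand, and Slc25a10 has 1 at chr11:120491587-120491836 on the plus strand. Each runs 5′ to 3′ towards the start, and capitals mark matches on either strand to the CRE (TGACGTCA), the E-box (CACGTG), the GC box (GGGCGG) and CCAAT.
Slc25a25 window 1: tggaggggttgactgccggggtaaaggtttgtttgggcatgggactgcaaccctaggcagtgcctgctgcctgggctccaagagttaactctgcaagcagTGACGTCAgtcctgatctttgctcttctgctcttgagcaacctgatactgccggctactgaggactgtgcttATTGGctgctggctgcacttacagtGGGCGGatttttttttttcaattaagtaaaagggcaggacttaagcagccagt
Slc25a25 window 2: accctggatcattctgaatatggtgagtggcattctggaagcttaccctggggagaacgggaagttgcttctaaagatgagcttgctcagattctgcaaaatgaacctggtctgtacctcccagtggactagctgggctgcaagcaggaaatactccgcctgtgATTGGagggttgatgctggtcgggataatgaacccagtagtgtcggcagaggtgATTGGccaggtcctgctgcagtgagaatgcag
Slc25a25 window 3: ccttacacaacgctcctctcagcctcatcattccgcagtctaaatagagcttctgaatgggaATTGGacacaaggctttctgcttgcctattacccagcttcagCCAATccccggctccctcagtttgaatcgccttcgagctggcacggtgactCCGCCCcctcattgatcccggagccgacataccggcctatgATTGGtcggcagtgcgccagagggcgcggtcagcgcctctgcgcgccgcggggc
Slc25a36: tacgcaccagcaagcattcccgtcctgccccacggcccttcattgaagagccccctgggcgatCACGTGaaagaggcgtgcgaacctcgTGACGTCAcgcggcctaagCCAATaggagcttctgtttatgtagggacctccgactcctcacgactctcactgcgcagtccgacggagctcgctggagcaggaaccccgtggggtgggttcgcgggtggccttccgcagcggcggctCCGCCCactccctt
Slc25a10: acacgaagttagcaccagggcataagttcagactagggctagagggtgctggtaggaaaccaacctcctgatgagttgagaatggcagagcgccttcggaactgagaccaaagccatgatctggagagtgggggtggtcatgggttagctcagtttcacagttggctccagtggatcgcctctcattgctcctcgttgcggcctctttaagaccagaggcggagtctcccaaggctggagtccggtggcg

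The CRE, the letters bound by CREB proteins, was found in window 1 of Slc25a25, with its first base at -150 from the start, and in the window of Slc25a36. That made 2 of 39 member windows (5.13%) against 1.55% of all 32851 windows of the same length. The E-box was in 7 of the 39 (17.9% against 6.02%), the GC box in 27 (69.2% against 32.7%) and CCAAT in 18 (46.2% against 33.8%). The NRF1 letters (GCGCATGC) were in 1 window (2.56% against 2.26%), and those of an estrogen-related receptor element (TCAAGGTCA) in 0 (against 0.387%). Member windows had a median GC content of 57.2%, against 52.4% over all windows. A match describes letters and shows no binding. Slc25a36, which holds the CRE letters too, had a ratio of -0.01 ± 0.06 (SD, n = 4). Its probe was dim, at a mean log2 intensity of 6.51, beside 6.14 to 6.28 for the members not above background. Ratios of such dim probes can be drawn towards 0 by the background correction, so this value does not show that the gene was unchanged.

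Beyond the members, the arrays can be summarised briefly. In the 8 channels, 60% to 67.3% of probes passed Agilent's test for signal well above background, and no spot was saturated. The 4 arrays shared a slide and a scan, per the file headers. The brighter Ilrun probe stood at -4.12, -4.11, -4.04 and -4.56 on arrays 1 to 4, low on every array as the labels require. The number of arrays limits precision, and the median 95% confidence interval of a ratio reached 0.147 to either side. Nothing in the sources says whether a sample was 1 mouse or a pool. The p-values measure the spread between these samples within each dye orientation, and leave out the difference between the orientations.

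Of the 40 members, 36 were well above background in at least 3 of 4 channels of either genotype. The 4 others were the sperm ADP/ATP carrier gene Slc25a31 and Slc25a43, with 0 such channels each, and the ornithine carrier gene Slc25a2 and the ATP-Mg/phosphate carrier gene Slc25a41, with 1 WT channel each. All 36 passed in both genotypes, with 4 of 4 channels each. Slc25a17, which carries cofactors into peroxisomes, was left with 1 array of each dye orientation after outlier spots were dropped, and its ratios of 0.25 on array 1 and -0.04 on array 3 are given without a test. Counts below are over the other 35.

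Among these 35, 1 fell and 0 rose, whereas over all 19675 genes tested 1.37% passed, 0.656% downward and 0.717% upward. Without adjustment 9 of 35 had a limma p under 0.05, beside 20.5% of all genes. Ratios had the same sign on all 4 arrays in 9 of 35, 4 lower and 5 higher, beside 23.2% of all genes. IlrunKO and WT levels did not overlap in 5 of 35, 2 lower and 3 higher, beside 8.89% of all genes. These shares are close to those of all genes or rest on few members.

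The median ratio of the 35 was -0.05, with array medians of -0.02, -0.00, -0.08 and -0.00, while that of all genes was -0.00. It was -0.16 with median centring in place of loess, a scaling that also moved the median of all genes to -0.05, and lay between -0.06 and -0.01 with each array left out in turn. The middle 50% of members lay from -0.13 to 0.06, and that of all genes from -0.07 to 0.08. In all, 23 members were below 0 and 12 above. These counts were 25 and 10 with median centring, but 19 and 16 without array 2 and 21 and 14 without array 3. Of all genes, 88.5% had a ratio smaller than 0.25 in size, beside 82.9% of the members. Members varied somewhat more between arrays, with a median SD of 0.20 against 0.15 over all genes.

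**Figure D1:**
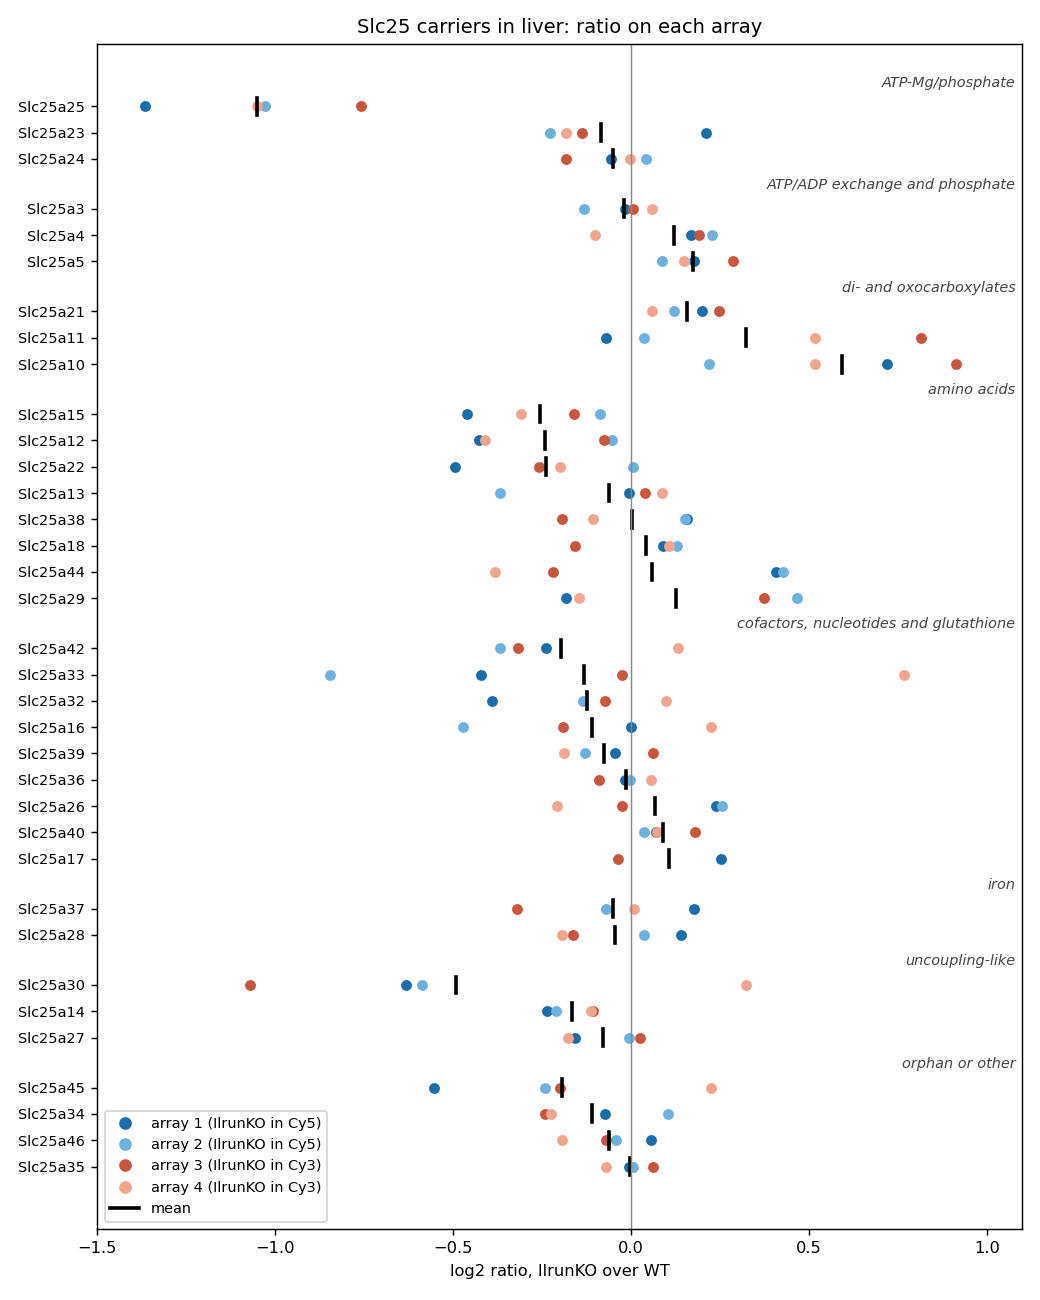
Log2 ratio of IlrunKO over WT (x axis) for 35 of the 36 Slc25 members above background (y axis), grouped by substrate. Points are the 4 arrays (Slc25a17 has 2) and black bars the mean. Slc25a25 is the member with all 4 points far below 0, from -1.37 to -0.76, and most bars lie within 0.25 of 0.

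The ATP-Mg/phosphate carriers exchange ATP-Mg for phosphate and so change the total nucleotide pool of the matrix, unlike the ADP/ATP carriers, which swap nucleotide for nucleotide. Slc25a25 had levels of 11.9, 12.1, 12.5 and 12.1 in the IlrunKO samples and 13.3, 13.2, 13.2 and 13.2 in the WT samples of arrays 1 to 4. Every IlrunKO sample was below every WT sample. The ratios were -1.37, -1.03, -0.76 and -1.05, with a mean of -1.05 ± 0.25 (SD, n = 4) and a 95% confidence interval from -1.27 to -0.83. Slc25a25 fell with an adjusted p of 0.0347 in limma, and its ratio was the 20th lowest of the 19675 genes.

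Slc25a25 was also read by a second, dimmer probe, which lies close to the first. The brighter probe lies on the minus strand of chromosome 2 at 32270275 to 32270334 and the dimmer one at 32270490 to 32270549 (mouse genome mm9). Which exon they fall in was not assigned here, and each is listed against 3 RefSeq transcripts, so the start used cannot be read from them. The dimmer probe stood at -1.19, -0.64, -0.91 and -1.41 on arrays 1 to 4, again lower on 4 of 4 arrays. It fell 2.05-fold, by 1.04 on the log2 scale with an SD of 0.33 (n = 4), with an adjusted p of 0.0431 in limma over all probes, where the brighter probe had 0.032. The levels of the dimmer probe were 11.0, 11.2, 11.3 and 10.9 in IlrunKO and 12.2, 11.8, 12.2 and 12.4 in WT samples, without overlap.

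**Figure D2:**
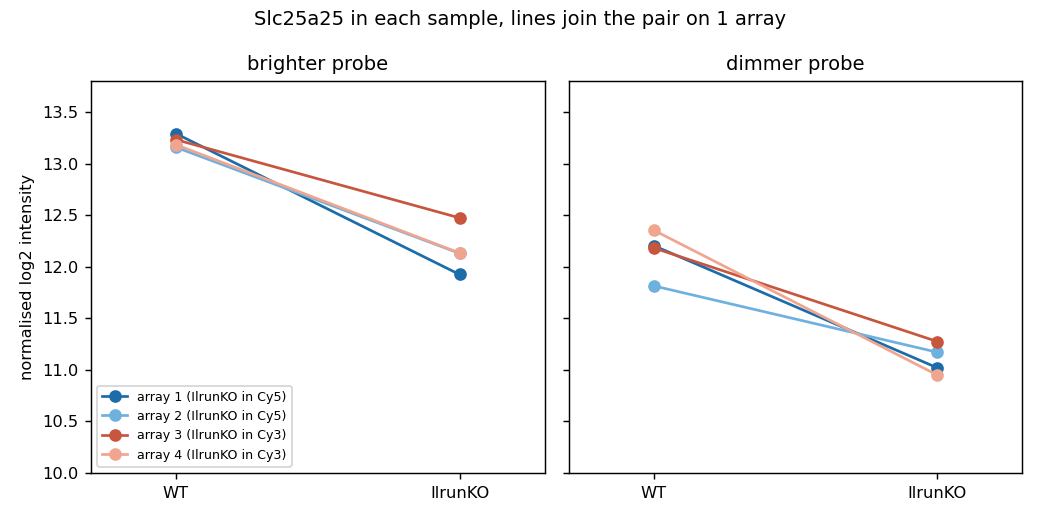
Normalised log2 intensity (y axis, starting at 10) of both Slc25a25 probes in each WT and IlrunKO sample (x axis), with lines joining the samples of 1 array. All 8 lines go down from WT to IlrunKO, and the WT levels of the brighter probe lie within 13.2 to 13.3.

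The fall of Slc25a25 kept its direction in 18 of 18 alternative settings and its call in 13. Some of the 18 change only the variance, filter or test and leave the ratio as it was, so direction could not differ there. Limma no longer called it with Agilent processed signals (-1.09, adjusted p = 0.0555), median centring (-1.19, adjusted p = 0.138), a trended robust variance (adjusted p = 0.258), without array 3 (-1.12, adjusted p = 0.153) or without array 4 (-0.98, adjusted p = 0.125).

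The other ATP-Mg/phosphate carriers above background stood near 0. Slc25a23 had ratios of 0.21, -0.23, -0.14 and -0.18, with a mean of -0.08 ± 0.20 (SD, n = 4), above 0 on array 1 alone. Its estimate without array 2 was 0.03. Slc25a24 stood at -0.06, 0.04, -0.18 and -0.00, with a mean of -0.05 ± 0.10 (SD, n = 4). Neither passed in limma (adjusted p = 0.635 and 0.669), and in both the genotypes overlapped. Intervals reached from -0.30 to 0.13 for Slc25a23 and from -0.19 to 0.09 for Slc25a24. The Slc25a24 probe was dim (mean log2 intensity 6.9), so its ratio and interval can be drawn towards 0. With Agilent processed signals Slc25a24 stood at -0.169, the group median in that setting.

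The ADP/ATP carriers Slc25a4 and Slc25a5 export the ATP made by oxidative phosphorylation, and Slc25a3 brings in the phosphate for it. None of the 3 passed, and 1, Slc25a5, had an unadjusted limma p under 0.05. Slc25a5, the more widely expressed ADP/ATP carrier gene, stood at 0.18, 0.09, 0.29 and 0.15, higher on 4 of 4 arrays (0.175 ± 0.08, SD, n = 4; limma adjusted p = 0.166). Its IlrunKO levels of 13.18 to 13.30 lay just above WT levels of 12.96 to 13.15 without overlap. Slc25a4, best known from heart and muscle, had ratios of 0.17, 0.23, 0.19 and -0.10, with array 4 on the other side (0.12 ± 0.15, SD, n = 4; limma adjusted p = 0.375). The Slc25a4 estimate was 0.05 without array 3 and 0.195 without array 4. With median centring in place of loess, Slc25a5 stood at 0.03 and Slc25a4 at 0.015. Slc25a3 stood at -0.02 ± 0.08 (SD, n = 4) and at -0.155 by its other probe (limma adjusted p = 0.166 over all probes).

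Carriers of dicarboxylates and oxo acids were all above 0, but none of the 3 passed. All 3 stayed above 0 under each alternative that changed their ratios. Slc25a10 moves malate and succinate against phosphate. Its IlrunKO levels were 10.03, 9.61, 10.01 and 9.80, above the WT levels of 9.31, 9.39, 9.09 and 9.28 in every sample. The ratios of Slc25a10 were 0.72, 0.22, 0.91 and 0.52, with a mean of 0.59 ± 0.30 (SD, n = 4), 1.51-fold, a 95% confidence interval from 0.30 to 0.88 and a limma adjusted p of 0.0852.

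Slc25a11, the oxoglutarate carrier of the malate-aspartate shuttle, differed between arrays: arrays 1 and 2 gave -0.07 and 0.04, whereas arrays 3 and 4 gave 0.81 and 0.52. The mean was 0.32 ± 0.41 (SD, n = 4; limma adjusted p = 0.0985), and the difference between the orientations, -0.68, had an adjusted p of 0.133 in limma. Since each orientation holds its own samples, dye and sample cannot be told apart in that difference. The limma fit takes that difference out of its error. Without a dye term in the model, limma gave an adjusted p of 0.398 for Slc25a11 and 0.0965 for Slc25a10. Slc25a21, the oxoadipate carrier gene of lysine and tryptophan breakdown, stood at 0.20, 0.12, 0.25 and 0.06, higher on 4 of 4 arrays with overlapping levels (0.16 ± 0.08, SD, n = 4; limma adjusted p = 0.213). All 3 of these genes had an unadjusted limma p under 0.05 in the main fit, which has the dye term.

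Amino acid carriers showed no common direction, with 4 of the 8 members measured below 0 (6 with median centring or without array 4), 4 above and 0 past the threshold. In limma 2 had an unadjusted p under 0.05. Slc25a15 brings ornithine into the matrix for the urea cycle, and stood at -0.46, -0.09, -0.16 and -0.31 (-0.255 ± 0.17, SD, n = 4; limma adjusted p = 0.178). Slc25a12, one of the calcium-regulated aspartate/glutamate carriers, stood at -0.43, -0.05, -0.08 and -0.41 (-0.24 ± 0.20, SD, n = 4; limma adjusted p = 0.24). Both were lower on 4 of 4 arrays, but their IlrunKO and WT levels overlapped. Without array 1 they stood at -0.16 and -0.15, and without array 4 Slc25a12 stood at -0.16.

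Slc25a13 (citrin), the aspartate/glutamate carrier gene typical of liver, stood at -0.01, -0.37, 0.04 and 0.09, so that array 2 alone was clearly below 0. Its mean was -0.06 ± 0.21 (SD, n = 4; limma adjusted p = 0.696), and its estimate without array 2 was 0.03. The glutamate carrier gene Slc25a22 stood at -0.24 ± 0.21 (SD, n = 4; limma adjusted p = 0.247), below 0 on 3 of 4 arrays. The remaining 4 means lay between 0.00 for the glycine carrier gene Slc25a38 and 0.13 for Slc25a29, a carrier of basic amino acids. Between them were the second glutamate carrier gene Slc25a18 at 0.04 and the branched-chain amino acid carrier gene Slc25a44 at 0.06.

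Slc25a44 was singled out after its values were seen, because its ratios of 0.41 and 0.43 on arrays 1 and 2 opposed -0.22 and -0.38 on arrays 3 and 4. The difference between orientations was 0.72, with an adjusted p of 0.101 in limma. Its dimmer probe did not repeat this split, at -0.01, 0.12, -0.28 and -0.04.

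Carriers of cofactors, nucleotides and glutathione numbered 9 measured members, 3 above 0 and 6 below (5 and 4 without array 3), with 0 past the threshold and 1 with an unadjusted limma p under 0.05.

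Slc25a42, the importer of coenzyme A, stood at -0.24, -0.37, -0.32 and 0.13, with array 4 on the other side (-0.20 ± 0.23, SD, n = 4; limma adjusted p = 0.295). Its estimate was -0.085 without array 3 and -0.31 without array 4. Of the others described here, the glutathione carrier genes Slc25a39 and Slc25a40 stood at -0.08 and 0.09, the folate and FAD carrier gene Slc25a32 at -0.125 and the S-adenosylmethionine carrier gene Slc25a26 at 0.07. Slc25a16 stood at -0.11, and Slc25a40 was above 0 on 4 of 4 arrays.

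Slc25a33, a pyrimidine nucleotide carrier gene singled out after its values were seen, spread most of all members. Its ratios were -0.42, -0.85, -0.03 and 0.77, so the mean of -0.13 ± 0.69 (SD, n = 4; limma adjusted p = 0.685) describes no single array, and its SD was larger than that of 98.5% of genes. A second probe gave -0.24, -0.58, -0.07 and 0.46, the same order of arrays. Array 2 was lowest and array 4 highest by both probes. The difference between orientations was -1.004, with an adjusted p of 0.203 in limma.

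**Figure D3:**
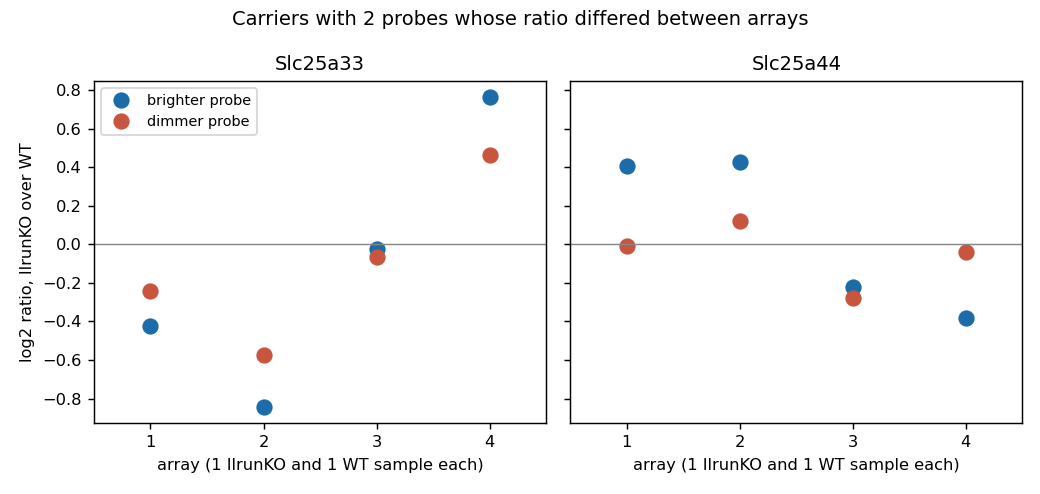
Log2 ratio of IlrunKO over WT (y axis) on each array (x axis) for both probes of Slc25a33 and Slc25a44. Both Slc25a33 probes run from lowest on array 2 (-0.85 and -0.58) to highest on array 4 (0.77 and 0.46), whereas the Slc25a44 probes differ most on arrays 1 and 4.

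The mitoferrins carry iron for heme and iron-sulfur cluster synthesis, and both stood near 0. Slc25a37 (mitoferrin 1) had ratios of 0.18, -0.07, -0.32 and 0.01 (-0.05 ± 0.21, SD, n = 4). Its estimate was 0.01 without array 2 and 0.03 without array 3. Slc25a28 (mitoferrin 2) had 0.14, 0.04, -0.16 and -0.19 (-0.04 ± 0.16, SD, n = 4), with estimates of -0.07 and -0.02 without array 1 or 2. The genotypes overlapped in both, and limma gave adjusted p of 0.776 and 0.664. A second Slc25a37 probe stood at 0.02.

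All 3 uncoupling-like carriers, relatives of the uncoupling proteins, were below 0, and none passed, while Slc25a14 had an unadjusted limma p under 0.05. All 3 stayed below 0 under each alternative that changed their ratios. Slc25a14 (UCP5) had small ratios of -0.24, -0.21, -0.11 and -0.11. Its IlrunKO levels of 8.74 to 8.83 lay below WT levels of 8.91 to 9.06 without overlap, with a mean ratio of -0.17 ± 0.07 (SD, n = 4; limma adjusted p = 0.143). Slc25a30 (kidney mitochondrial carrier 1) stood at -0.63, -0.59, -1.07 and 0.32, with array 4 on the other side. Its mean of -0.49 ± 0.59 (SD, n = 4; limma adjusted p = 0.314) had a 95% confidence interval from -1.09 to 0.10, and its SD exceeded that of 97.8% of genes. Leaving out array 3 gave an estimate of -0.14, and leaving out array 4 gave -0.84. The size of the Slc25a30 ratio also varied with background handling, at -0.64 without correction, -0.68 with normexp at offset 0 and -0.82 with Agilent processed signals. Slc25a27 (UCP4) stood at -0.08, by a dim probe (mean log2 intensity 6.8). With Agilent processed signals the median of the 3 was -0.347, which was the value of Slc25a27, so its ratio varied with background handling too.

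The 4 measured members with other or unsettled substrates were below 0, or 3 of 4 with Agilent processed signals, the deposited ratios, median centring, no background correction, or without array 1 or 4, and none passed or had an unadjusted limma p under 0.05. Slc25a45 stood at -0.56, -0.24, -0.20 and 0.23 (-0.19 ± 0.32, SD, n = 4; limma adjusted p = 0.342). Its estimates were -0.115, -0.09 and -0.30 without arrays 1, 3 and 4. Slc25a34 stood at -0.07, 0.10, -0.24 and -0.23 (-0.11 ± 0.16, SD, n = 4; limma adjusted p = 0.332), and at -0.06 without array 1. Slc25a46, an outer membrane protein of mitochondrial fusion, stood at 0.06, -0.04, -0.07 and -0.195 (-0.06 ± 0.10, SD, n = 4; limma adjusted p = 0.557), and at -0.04 and -0.03 without array 2 or 4. Each had at least 1 array above 0, and Slc25a35 stood at -0.00.

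**Figure D4:**
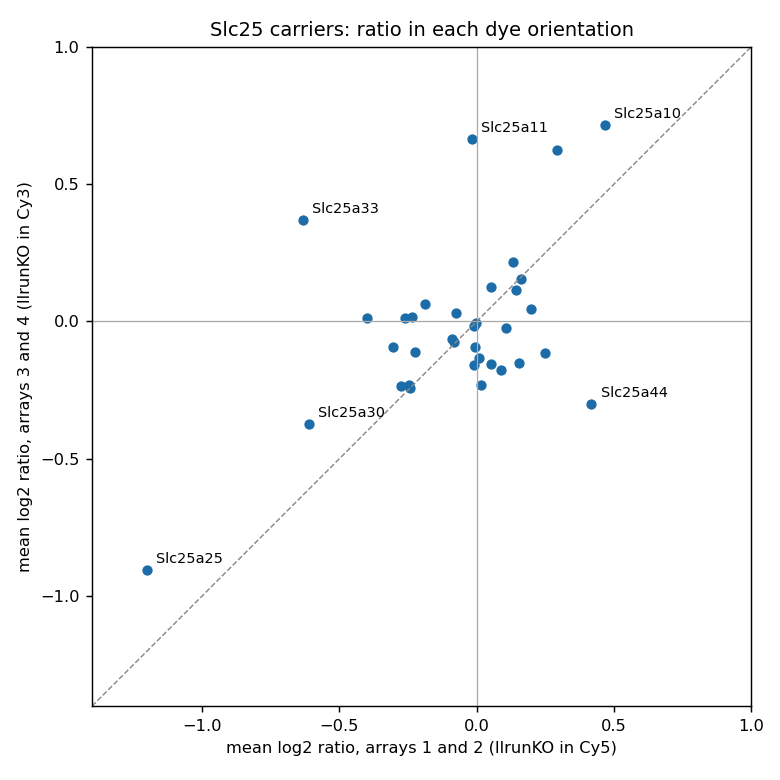
Mean log2 ratio on arrays 1 and 2, with IlrunKO in Cy5 (x axis), against that on arrays 3 and 4, with IlrunKO in Cy3 (y axis), for the 35 members measured on 4 arrays. On the dashed line both are equal. Slc25a25 is low in both (-1.20 and -0.91), while Slc25a33 and Slc25a44 have opposite signs.

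For 29 of the 35 members the 95% confidence interval lay within 0.5 of 0 on the log2 scale. Among the other 6 were Slc25a25, Slc25a10, Slc25a11, Slc25a30 and Slc25a33. These intervals leave out the difference between dye orientations. That of Slc25a44 ran from -0.075 to 0.19, while its array ratios ran from -0.38 to 0.43. Ratios of dim probes, such as those of Slc25a18, Slc25a24, Slc25a27, Slc25a35 and Slc25a36, can also be drawn towards 0. Larger differences are therefore not excluded. In a fit of separate channels, which limma ran with an estimated correlation between the channels of a spot of 0.517, 6 members passed: 4 rose, among them Slc25a5, Slc25a10 and Slc25a11, and Slc25a14 and Slc25a25 fell. That fit called 2486 of the 19566 genes it tested, against 270 in the main fit, so the 6 of 35 are to be read beside that larger share.

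Both carriers outside the set stood a little above 0: the citrate carrier gene Slc25a1 at 0.14 and the carnitine carrier gene Slc25a20 at 0.175 (limma adjusted p = 0.357 and 0.29). Carriers of the same family under another name were the uncoupling proteins and the mitochondrial carrier homologs, of which 4 of 5 were above background and 0 passed. Ucp2 stood at 0.31 and Ucp3 at 0.31, each higher on 4 of 4 arrays (limma adjusted p = 0.117 and 0.128), and Ucp1 was not above background. Their list median was 0.24, beside -0.05 for the Slc25 members, and 0.13 with median centring, where the median of Slc25a1 and Slc25a20 was 0.04 in place of 0.16.

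Other mitochondrial genes did not pass either. Of 17 other transporters above background, 9 were above 0 and 8 below (median 0.02), with Sfxn2 measured on 2 arrays. Among them the pyruvate carrier subunit gene Mpc2 stood at -0.385 and the calcium uniporter regulator gene Micu2 at 0.31 (limma adjusted p = 0.0738 and 0.0739). The 13 genes of carrier import had a median of -0.00, with Timm22, the channel of the TIM22 complex, at 0.20 and Tomm40 at 0.22 (limma adjusted p = 0.112 and 0.282).

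The 14 genes of mitochondrial content had a median of 0.03, with the cristae gene Immt at 0.30 and the matrix protease gene Clpp at 0.225 (limma adjusted p = 0.0739 and 0.0999). The 15 ATP synthase genes above background had a median of 0.02, with Atp5g3 at 0.26 and Atp5a1 at 0.22 (limma adjusted p = 0.114 and 0.164). The 11 enzymes of the malate-aspartate shuttle and urea cycle, which work beside Slc25a11, Slc25a12, Slc25a13 and Slc25a15, also had a median of 0.02, with Oat at 0.27 and Mdh1 at 0.15 (limma adjusted p = 0.178 and 0.237). The ratio of largest size in that list, picked out after its values were seen, was that of the shuttle enzyme gene Got1, at -1.04, 0.23, -0.05 and -1.41 (-0.57 ± 0.78, SD, n = 4; limma adjusted p = 0.369). With median centring all 5 list medians were below 0, from -0.13 for ATP synthase to -0.10 for mitochondrial content, beside -0.16 for the Slc25 members. In these 5 lists 0 genes passed in limma, beside 1.37% of all genes, and 17 of their 70 genes had an unadjusted limma p under 0.05, beside 20.5%.

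**Figure D5:**
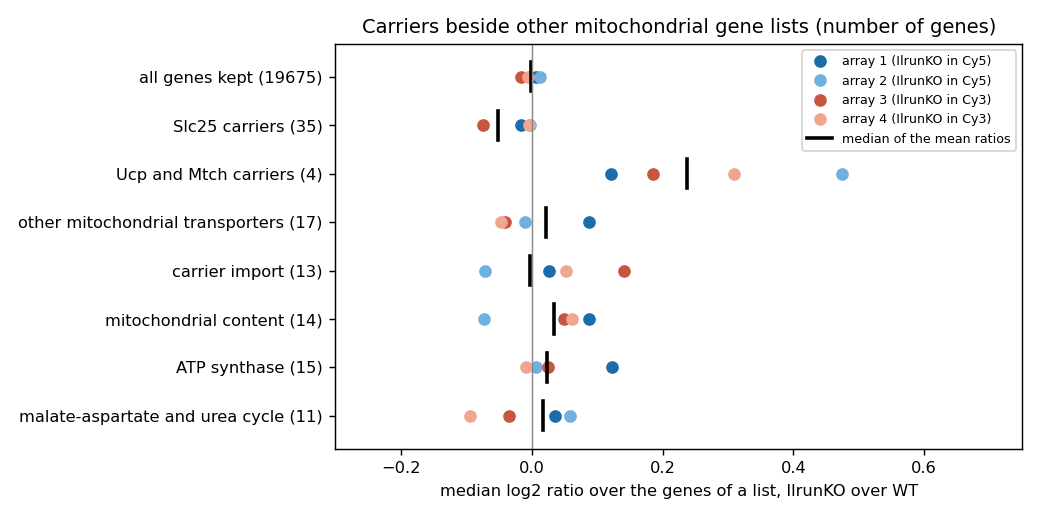
Median log2 ratio of IlrunKO over WT (x axis) over the genes of each list (y axis, number of genes in brackets). Points are the 4 arrays and black bars the median of the mean ratios, which is -0.05 for the Slc25 carriers and between -0.00 and 0.03 for the 5 lists of other mitochondrial genes.

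Markers of several liver cell types also stood off 0, and their part in the carrier values was not tested. In whole liver, fewer cells of a type and less RNA per cell cannot be told apart. Hepatocyte markers were below 0 in 9 of 10 (median -0.315), with list levels, the mean over the genes, of 15.1 to 15.41 in IlrunKO and 15.38 to 15.59 in WT samples. On arrays 1 to 4 their medians were -0.18, 0.01, -0.34 and -0.38, while Slc25a25 stood at -1.37, -1.03, -0.76 and -1.05. Trf and Alb had the smallest p, at -0.62 and -0.36 (limma adjusted p = 0.0741 and 0.0862). Alb was above 0 on arrays 1 and 2 (0.54 and 0.21) and below 0 on arrays 3 and 4 (-1.07 and -1.11), and Trf stood at -0.235, 0.345, -1.37 and -1.23.

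Kupffer cell markers were above 0 in 10 of 10 (median 0.44, list levels 10.85 to 11.45 in IlrunKO and 10.43 to 10.99 in WT samples), though array 1 had a median of -0.16. Stellate cell markers were below 0 in 10 of 10 (median -0.285, list levels 8.73 to 9.10 and 8.97 to 9.40), and endothelial markers in 7 of 8 (median -0.04, list levels 9.93 to 10.08 and 9.93 to 10.15). The 2 erythroid markers above background had a median of -0.31 (list levels 13.05 to 13.53 and 13.27 to 13.74). No marker of these 5 cell types passed, while 24 of 40 had an unadjusted limma p under 0.05, beside 20.5% of all genes.

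Adipocyte markers were above 0 in 4 of 5 (median 1.04), and 2 of 5 rose, Adrb3 by 1.04 and Cfd by 3.82 (limma adjusted p = 0.0303 and 0.047), beside 0.717% of all genes. Cidec stood at 1.53 and Retn at 0.14, each higher on 4 of 4 arrays (limma adjusted p = 0.0547 and 0.215), and Fabp4 stood at -0.11. List levels were 9.35 to 9.78 in IlrunKO and 8.03 to 8.50 in WT samples. The defining fat cell genes Adipoq, Plin1 and Lep were not above background in enough channels. All 6 skeletal muscle markers were likewise not above background.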

How the data were processed

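The authors deposited scanner files, made with Agilent Feature Extraction per the file headers, that give every spot a raw intensity, a processed intensity and the log10 of Cy5 divided by Cy3. A series table of log2 values was deposited too, for which the submitters' processing notes name limma. Its columns held the log2 ratio of IlrunKO over WT. Bright spots, with a mean raw log2 intensity above 8, numbered 13158 to 13210 per array. Over these alone the columns correlated with the scanner's log10 value at r = 0.989, 0.983, -0.984 and -0.981 on arrays 1 to 4. The sign was negative where IlrunKO was in Cy3. The sources used here do not give its background correction or normalisation.

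Raw intensity was taken through limma 3.58.1 (R 4.3.3; data.table version 1.17.8) by normexp background correction (offset 50), loess within arrays with 1377 control spots at weight 0, outlier spots left out, spots averaged per probe. The brightest probe stood for a gene, kept where well above background in at least 3 of 4 channels of either genotype (19675 of 31709 genes). A further 28 genes above background had no spot left in 1 orientation. Sample levels came from Aquantile-normalised single channels. Each gene was fitted with a genotype and a dye orientation term (2 residual and 2.83 prior degrees of freedom, median standard error 0.0567), with Benjamini-Hochberg adjustment over the 19675 genes, two-sided. A difference between the dye orientations enters that term and not the error, which reflects the spread of the pair of arrays in each. The fit was tested on simulated data.

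Members passing, the 2 largest mean ratios and the brightest probe of each substrate group were named with every array, and in each list the members passing or the 2 with the smallest p. The members, lists and motifs were chosen with earlier results of these data known. Alternatives changed the model, background correction, scaling, filter, probe choice, variance model and arrays used. Genes were named through RefSeq. Probes keep the mm9 positions of the files. Values of 1 member are not reported here, and it stays in the counts.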

Additional observations from a re-analysis of the deposited data

Results flagged for a closer look

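Array 3 stood apart for Slc25a18, a glutamate carrier gene with a dim probe (mean log2 intensity 6.5). Its ratio there was -0.158, against 0.09, 0.13 and 0.11 on arrays 1, 2 and 4, and the gap to the nearest array was a larger part of the range than Dixon's 95% critical value for 4 values. This was 1 of 35 members examined, and chance gives about 1 in 20.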

How the results depend on the processing

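Slc25a25 was lower in all 18 alternatives, from -1.19 to -0.97, with limma adjusted p from 0.000445 to 0.258. Of these alternatives, 1 (outlier spots kept) was added after the data were seen. Some change only the variance, filter or test and leave the ratio as it was, so direction could not differ there. The 1 member that fell became 0 of 35 with Agilent processed signals, median centring and a trended robust variance, and 0 to 1 with 1 array left out (0 without replicate 3 or 4). Members that rose or fell numbered 2, with 1 that rose, without background correction, with the deposited log2 ratios, with no filter and with each probe on its own. In separate channels they numbered 6 of 35, of which 4 rose and 2 fell, beside 2486 of 19566 genes tested. The family median was -0.156 with median centring, and ran from -0.061 to -0.007 with 1 array left out. Direction reversed for Slc25a13 (0.028), Slc25a23 (0.026) and Slc25a37 (0.010) without replicate 2, and for Slc25a37 (0.031) without replicate 3. With 1 array left out, the estimates average the means of both dye orientations and are not plain means of the arrays left. They ran from -0.152 to 0.028 for Slc25a13, -0.194 to 0.026 for Slc25a23 and -0.134 to 0.031 for Slc25a37. The cause was not tested. Over all genes, 270 passed, 181 without the dye term, 442 without background correction, 450 with the deposited ratios, 80 with Agilent processed signals, 1 with median centring, 0 with a trended robust variance, 2486 in separate channels and between 1 and 464 with 1 array left out. The trended robust limma fit gave 3556 genes an unadjusted p under 0.05. Each array pairs 1 IlrunKO and 1 WT sample, so every ratio is already within a pair and no further block was fitted.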
